A study of Homo sapiens with 9 samples.

Results

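The 50 genes described here encode the machinery of mitosis, from the kinases that start it to the proteins that divide the cell. They were taken by symbol from a list of regulators of mitotic entry, kinetochore and checkpoint proteins, motors, condensin and cytokinesis genes, and all 50 were found among the 27902 genes of the RNA-seq tables. DU145, a human prostate cancer cell line, was sequenced as 9 libraries. The 3 control libraries came from cells expressing the scrambled shRNA (scramble), 3 from cells expressing *FZD6* shRNA1 (shRNA FZD6 #1) and 3 from cells expressing *FZD6* shRNA2 (shRNA FZD6 #2). The hairpins were delivered in the pLKO vector family, the genotype of all cells is given as WT, and the 6 libraries with either hairpin are called knockdown here. The labels call each set of 3 a triplicate without naming separate cultures, so p-values measure the spread between these libraries, which may be technical.

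Entry into mitosis is driven by CDK1 bound to cyclin B. WEE1 and PKMYT1 hold CDK1 inactive by phosphorylating it, and the CDC25 phosphatases remove that mark. Kinetochores then attach chromosomes to spindle microtubules, and the spindle checkpoint keeps the anaphase-promoting complex (APC/C) with its activator CDC20 in check until attachment is complete. Most of these genes are transcribed in G2 and M phase, so their RNA in a bulk culture follows both the number of cells in those phases and the RNA in each cell. Fewer cells of a phase and less RNA per cell cannot be told apart in these data.

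Values are FPKM, sequenced fragments scaled to transcript length and to library size, summed over the RefSeq transcripts of each gene. The authors' software gave each transcript a confidence interval, and for the main transcript of each of the 50 genes its half-width was 1.36% to 14.3% of the value, with a median of 5.34%. Fold changes are differences of log2(FPKM + 1) by limma, and a gene was called when its p-value, adjusted over all 12509 genes whose mean reached 1 FPKM, was under 0.05. All 50 genes passed that minimum. The targeted gene was lower in every knockdown library. *FZD6* was at 20.9, 20.5 and 20.04 FPKM in control libraries, 9.47, 10.2 and 9.80 FPKM with shRNA1, and 7.84, 8.79 and 7.69 FPKM with shRNA2. Its log2 fold change in knockdown was −1.12 ± 0.0848 (standard error, adjusted p = 0.00049), and the two-sided exact permutation test gave p = 0.0119, the smallest possible for 6 libraries against 3. The epithelial keratin genes *KRT8* (202 to 238 FPKM) and *KRT18* (260 to 296 FPKM) were high in all libraries, and *KLK3*, which encodes prostate-specific antigen, did not exceed 0.0138 FPKM. Of 4 leukocyte markers, *PTPRC*, *CD3E* and *MS4A1* were listed at 0 in all 9 libraries. The remaining marker, the lysosomal gene *CD68*, was at 16.9 to 25.7 FPKM, and the summed level of the list was 16.9 to 18.1 FPKM in control libraries, 21.3 to 23.0 FPKM with shRNA1 and 25.05 to 25.7 FPKM with shRNA2. The 4 fibroblast markers summed to 0.299 to 0.455 FPKM over all libraries, nearly all from *COL1A1*, with *LUM* listed at 0. The part of other cell types in the results was not tested.

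The question asked of these genes was whether *FZD6* knockdown changed them. Their median log2 fold change was 0.03, the same to 2 decimals as the median of all tested genes, and 28 lay above 0 and 22 below. Of the 50, 6 genes were called higher and 8 lower. *CDK1*, *CDC25A*, *SPC25*, *CDC20*, *AURKB* and *BIRC5* rose, by 0.09 to 0.22 on the log2 scale. *FOXM1*, *CENPF*, *ESPL1*, *INCENP*, *CENPE*, *NCAPD2*, *TOP2A* and *MKI67* were lower, with log2 fold changes from −0.44 to −0.10. Of all tested genes, 20.6% were called, 13.5% higher and 7.1% lower, so the 6 mitotic genes called higher (12%) lie near that background, and the 8 called lower (16%) lie above it. With quantile normalization, 3 of the 50 were called higher and 10 lower, and of all tested genes 8.37% and 8.46%. Changes were small, and only *CENPF* and *MKI67* changed by at least 1.2-fold.

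These counts rested on few control libraries. Without control replicate 1, 4 of the 50 genes were called, without control replicate 2, 4, and without control replicate 3, 5. Calls over all tested genes fell too, from 1690 higher and 888 lower to 726 and 419, 580 and 346, and 928 and 547. Leaving out shRNA1 replicate 3 left 8 calls, and leaving out shRNA2 replicate 3 left 9. Over all tested genes these fits called 1275 higher and 717 lower, and 1319 and 721. *SPC25*, *NCAPD2* and *MKI67* were called whichever library was left out. All 6 knockdown libraries lay above all 3 control libraries for 10 genes and below them for 7. Of all tested genes, 16.4% and 9.46% did so, 25.9% in either direction.

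**Figure D1:**
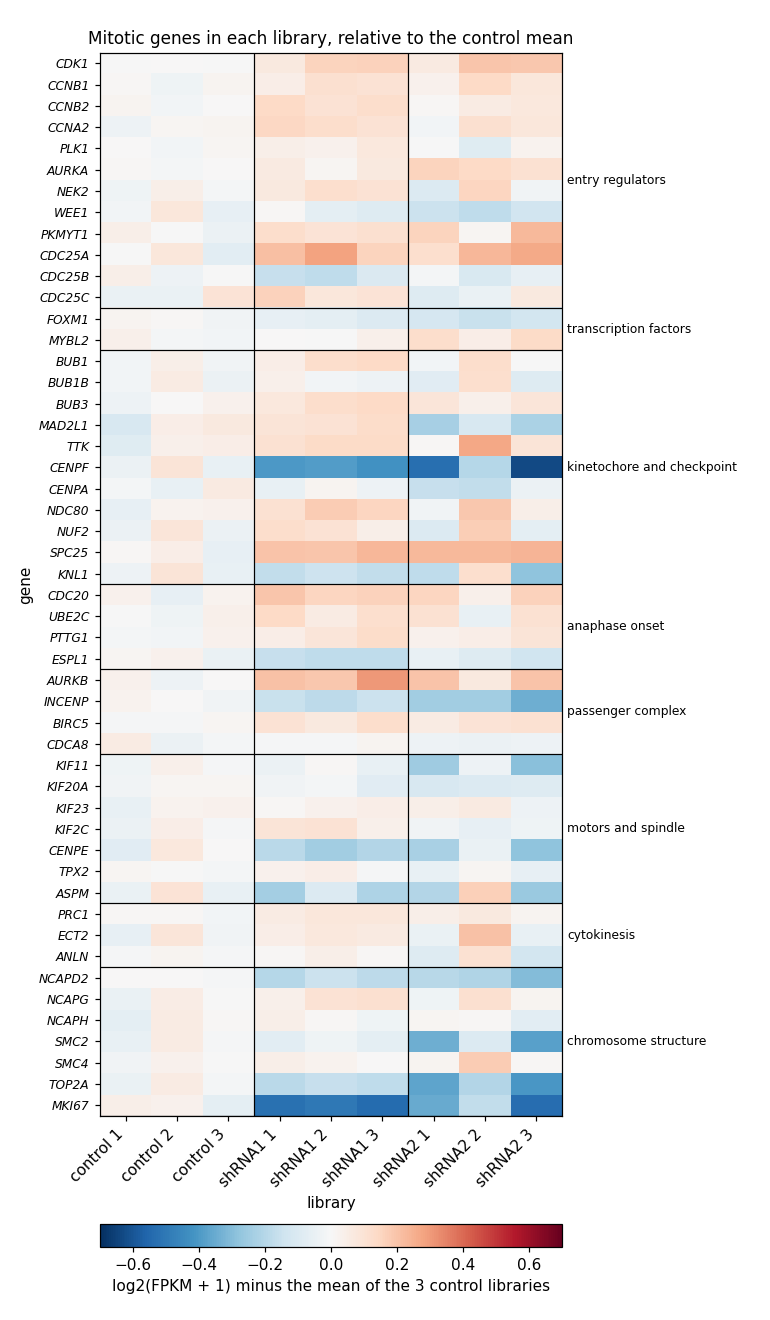
Each row is a mitotic gene and each column a library, and color gives log2(FPKM + 1) minus the mean of the 3 control libraries. *CENPF* and *MKI67* are the darkest blue rows across the knockdown columns, *SPC25*, *CDC25A* and *AURKB* are red, and shRNA2 replicate 2 is paler or redder than shRNA2 replicates 1 and 3 in rows such as *KNL1*, *ASPM* and *ECT2*.

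**Figure D2:**
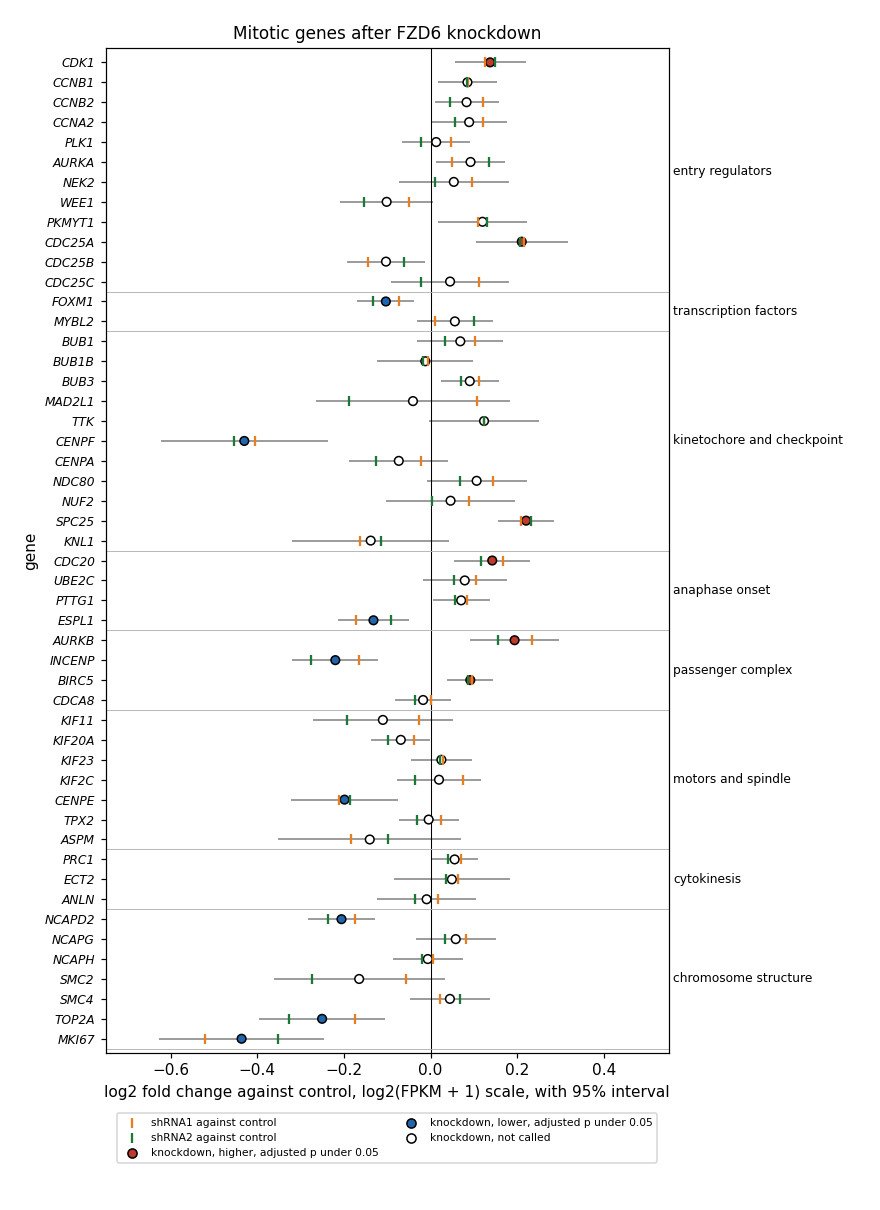
Circles give the log2 fold change of knockdown (n = 6) against control (n = 3) with its 95% interval from limma, filled red or blue for the 6 genes called higher and the 8 called lower. Orange and green ticks give shRNA1 and shRNA2 (n = 3 each) against the same control libraries.

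The promoters of these genes are shown because they share an element that the choice of genes did not use. The cell cycle genes homology region (CHR) is the site through which the MuvB complex, with B-MYB and FOXM1 or as the DREAM repressor, acts on genes of G2 and M phase, and it often lies a short distance from CCAAT boxes, which bind NF-Y. The letters TTTGAA were searched on both strands in RefSeq promoters of the build GRCh38.p14, from 250 bases before to 50 bases after the annotated start, and 40 of the 50 genes had such a promoter. Of these, 26 (65.0%) held the element, against 9.26% of the 9648 tested genes with a promoter and 15.4% of all 27305 promoters. It lay within the 50 bases before the start in 15 of 40 (37.5%), against 1.51% of tested genes. The letters CCAAT on either strand were present in 28 of 40 (70.0%), against 37.0% of tested genes, and the 2 motifs overlapped in 2 promoters. Windows of 30 bases around the CHR nearest to the start are printed below for the 9 called genes that had one, and for *CCNB2* and *PLK1* as genes that were not called in knockdown. Capitals mark the CHR, and sequences run 5′ to 3′ on the strand of the gene.
*CDK1* (chr10:60778158-60778187, plus strand): gagtataataaaTTTGAActgtgccaatgc
*SPC25* (chr2:168890416-168890445, minus strand): aagtgcactaggTTTGAAatcggaaagttg
*CDC20* (chr1:43358904-43358933, plus strand): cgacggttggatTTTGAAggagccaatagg
*CENPF* (chr1:214603215-214603244, plus strand): ccggtggcggctgcgggcagTTTGAAttag
*ESPL1* (chr12:53268256-53268285, plus strand): cagccgcggataTTTGAAaggagggtctgg
*INCENP* (chr11:62123989-62124018, plus strand): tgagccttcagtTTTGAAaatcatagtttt
*NCAPD2* (chr12:6493945-6493974, plus strand): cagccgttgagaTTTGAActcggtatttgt
*TOP2A* (chr17:40418030-40418059, minus strand): ctgattggtttaTTCAAAcaaaccccggcc
*MKI67* (chr10:128126435-128126464, minus strand): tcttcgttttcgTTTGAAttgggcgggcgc
*CCNB2* (chr15:59105105-59105134, plus strand): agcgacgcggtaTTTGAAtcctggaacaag
*PLK1* (chr16:23678848-23678877, plus strand): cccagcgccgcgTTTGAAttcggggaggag

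Counted from the annotated start, the element begins at −29 in *CCNB2*, *PLK1* and *MKI67*, at −31 in *ESPL1* and at −10 in *INCENP*. It lies farther upstream in *CDK1* (−161), *TOP2A* (−151), *NCAPD2* (−145) and *CDC20* (−65), and in *CENPF* it lies downstream of the start, at position 41. The *TOP2A* window holds it in the reverse direction, as TTCAAA. Among genes with a promoter it was present in 3 of the 5 called higher, 6 of the 7 called lower and 17 of the 28 not called. A match is a description of letters and not a binding site.

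**Figure D3:**
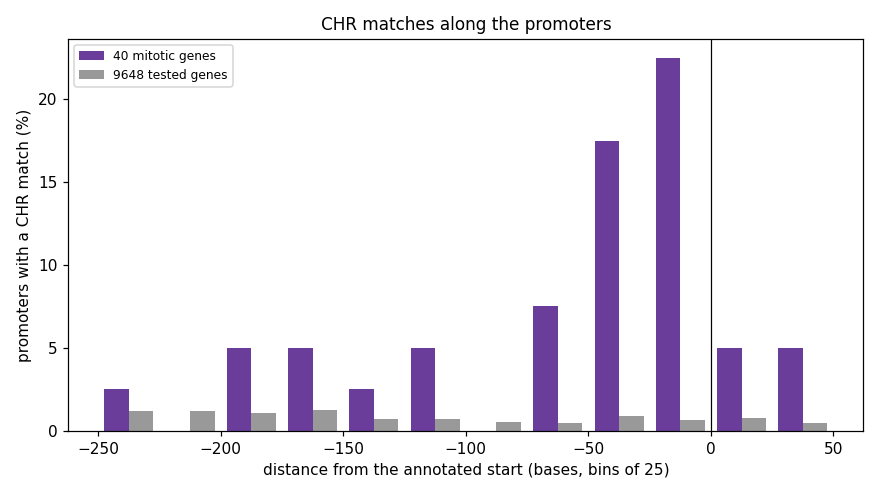
Bars give the percentage of promoters with a CHR match that begins in each 25-base bin, by distance from the annotated start, for the 40 mitotic genes and the 9648 tested genes. The mitotic genes reach 17.5% and 22.5% in the 2 bins just before the start, where tested genes are at 0.891% and 0.643%.

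Of the 12 regulators of mitotic entry, *CDK1* and *CDC25A* rose, none was called lower, and the median log2 fold change was 0.08. *CDK1*, the kinase at the center of the switch, was at 48.2, 48.5 and 48.3 FPKM in control libraries, 50.7, 53.9 and 54.1 FPKM with shRNA1, and 50.6, 55.4 and 55.2 FPKM with shRNA2. All 6 knockdown libraries lay above the control libraries. The knockdown mean of 53.3 ± 2.13 FPKM (s.d., n = 6) was 10.3% above the control mean of 48.3 ± 0.14 FPKM (s.d., n = 3), with a log2 fold change of 0.14 ± 0.0361 and an adjusted p of 0.0296. Alone, shRNA2 was called (adjusted p = 0.0362) and shRNA1 was not (adjusted p = 0.0732). The call was lost in 6 of the 9 fits that left out a library, those without any 1 control library, shRNA1 replicate 2 or 3, or shRNA2 replicate 3, with a largest adjusted p of 0.0978. It was also lost with quantile normalization (0.09, adjusted p = 0.146).

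*CDC25A*, a phosphatase that activates CDK complexes, showed the larger rise. It was at 4.97, 5.33 and 4.69 FPKM in control libraries, 5.93, 6.27 and 5.67 FPKM with shRNA1, and 5.51, 6.05 and 6.19 FPKM with shRNA2. The groups did not overlap, and the mean was 18.8% higher in knockdown (log2 fold change 0.21 ± 0.0466, adjusted p = 0.016). The hairpins gave 0.22 and 0.21, both called. Without control replicate 1 or control replicate 3 it was not called, and the largest adjusted p was 0.0658. The other CDC25 genes did not follow it. *CDC25B* had a log2 fold change of −0.10 (adjusted p = 0.0977) and was called lower with shRNA1 alone (−0.15, adjusted p = 0.0298), and *CDC25C* had 0.05 (adjusted p = 0.628).

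The B-type cyclin gene *CCNB1*, which encodes the partner of CDK1, was at 67.8, 65.9 and 68.3 FPKM in control libraries, 69.6, 72.9 and 72.3 FPKM with shRNA1, and 68.9, 74.3 and 71.1 FPKM with shRNA2. Every knockdown library was above every control library, but the difference of 0.09 ± 0.0304 on the log2 scale was not called (adjusted p = 0.0799). *CCNB2* was called higher with shRNA1 (0.12, adjusted p = 0.0223) and had 0.05 with shRNA2 (adjusted p = 0.242). *AURKA*, the centrosomal Aurora kinase, showed the opposite order, with 0.14 for shRNA2 (adjusted p = 0.00979) and 0.05 for shRNA1 (adjusted p = 0.226). The cyclin A gene *CCNA2* (0.09, adjusted p = 0.13) and *NEK2*, a kinase of centrosome separation (0.05, adjusted p = 0.526), were not called in knockdown. Neither *CCNB2* (adjusted p = 0.15) nor *AURKA* (adjusted p = 0.101) was called between the hairpins.

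*PLK1*, a kinase of mitotic entry and spindle assembly, was at 87.9, 86.5 and 88.4 FPKM in control libraries, 90.0, 89.5 and 92.0 FPKM with shRNA1, and 87.3, 82.6 and 89.2 FPKM with shRNA2. The groups overlapped, and the log2 fold change of 0.01 had a 95% interval from −0.07 to 0.09 (adjusted p = 0.818). The exact permutation test gave p = 0.69 (0.69 after adjustment over *CDK1*, *PLK1*, *WEE1* and *PKMYT1*).

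*WEE1* and *PKMYT1*, the kinases that inhibit CDK1, lay on opposite sides of 0. *WEE1* was at 8.24, 8.90 and 8.02 FPKM in control libraries, 8.44, 7.95 and 7.82 FPKM with shRNA1, and 7.46, 7.28 and 7.55 FPKM with shRNA2. Only the shRNA2 libraries lay wholly below the control libraries. In knockdown the 95% interval of its log2 fold change ran from −0.21 to 0.01, and the exact permutation test gave p = 0.0714 (0.0952 adjusted over the 4 kinases). With shRNA2 alone *WEE1* was called lower (−0.15, adjusted p = 0.0337), with shRNA1 it had −0.05 (adjusted p = 0.452), and the difference between hairpins was not called (−0.10, adjusted p = 0.2). *PKMYT1* was at 24.8, 24.1 and 23.4 FPKM in control libraries, 26.3, 25.8 and 26.1 FPKM with shRNA1, and 27.0, 24.3 and 28.4 FPKM with shRNA2. One of its knockdown libraries, shRNA2 replicate 2, fell within the control range. The log2 fold change was 0.12 ± 0.0448 (adjusted p = 0.0909), and the exact permutation test gave p = 0.0476 (0.0952 adjusted). For *CDK1* that exact permutation test gave p = 0.0119, the smallest possible, and 0.0476 adjusted.

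**Figure D4:**
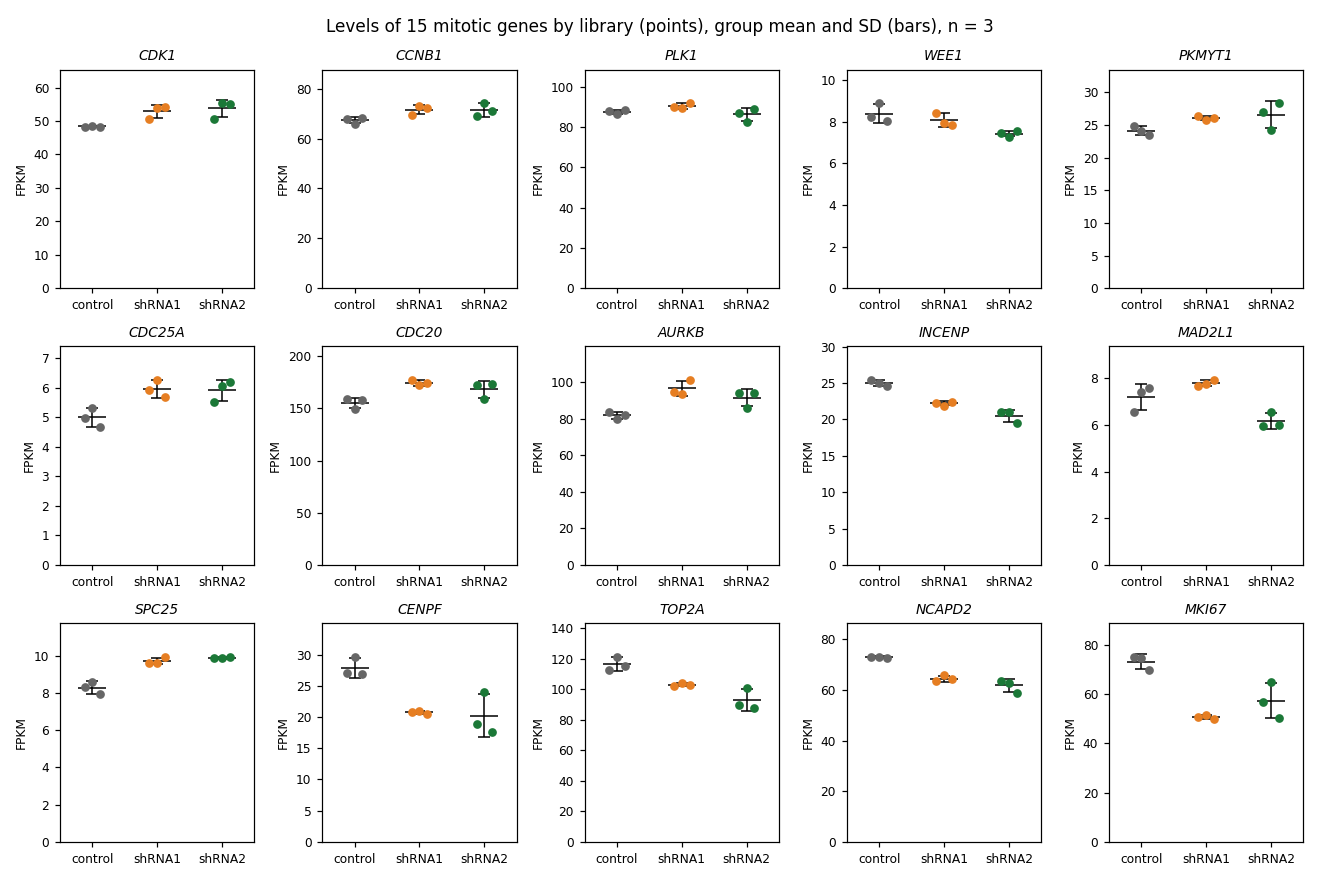
FPKM of 15 genes in each library (points) with the group mean and s.d. (bars, n = 3 per group), each panel starting at 0. *CDK1*, *CDC25A*, *SPC25* and *AURKB* lie higher in both hairpin groups, *CENPF*, *TOP2A*, *NCAPD2* and *MKI67* lower, and *MAD2L1* lies lower with shRNA2 than with shRNA1.

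FOXM1 and B-MYB (*MYBL2*) are the transcription factors that act on G2 and M phase promoters. *FOXM1* was at 78.4, 77.9 and 76.1 FPKM in control libraries, 74.5, 73.8 and 72.4 FPKM with shRNA1, and 71.4, 69.4 and 70.8 FPKM with shRNA2. The 3 groups did not overlap, with control highest and shRNA2 lowest. It fell by 6.97% in knockdown (log2 fold change −0.10 ± 0.0288, adjusted p = 0.0369), a call made for shRNA2 (adjusted p = 0.00924) and missed for shRNA1 (adjusted p = 0.0822). The call was lost without any 1 control library, shRNA1 replicate 3, shRNA2 replicate 1 or shRNA2 replicate 3, with a largest adjusted p of 0.132. It was also lost when only protein-coding accessions were summed (adjusted p = 0.0536). *MYBL2* had a log2 fold change of 0.06 (adjusted p = 0.331).

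Among 11 kinetochore and checkpoint genes, *SPC25* rose and *CENPF* was lower, and the median was 0.05. *SPC25*, a subunit of the NDC80 complex that binds microtubules, was at 8.33, 8.596 and 7.92 FPKM in control libraries, 9.64, 9.61 and 9.92 FPKM with shRNA1, and 9.87, 9.87 and 9.96 FPKM with shRNA2. The knockdown libraries lay in a narrow range above all control libraries. The mean was 18.5% higher in knockdown (log2 fold change 0.22 ± 0.0283, adjusted p = 0.00266), and the hairpins gave 0.21 and 0.23. Its transcript is listed at 2 loci, on chromosome 2 and on an alternate contig of it, and the sum counts both, which raises its level. It was also called when only primary chromosomes were summed. Its partners *NDC80* (0.11, adjusted p = 0.17) and *NUF2* (0.05, adjusted p = 0.651) were not called.

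*CENPF*, a large coiled-coil protein of the outer kinetochore, was at 27.0, 29.7 and 26.8 FPKM in control libraries. It was at 20.7, 21.0 and 20.4 FPKM with shRNA1, and 18.9, 24.1 and 17.6 FPKM with shRNA2. All knockdown libraries lay below the control libraries, and shRNA2 replicate 2 was the closest to them. The mean fell by 26.4% (log2 fold change −0.43 ± 0.0848, adjusted p = 0.0108), with −0.41 for shRNA1 and −0.45 for shRNA2, both called. It was not called without control replicate 2 (adjusted p = 0.0554). *KNL1*, the scaffold on which BUB proteins assemble, had −0.14 (adjusted p = 0.252), and *CENPA*, the centromeric histone, had −0.07 (adjusted p = 0.331).

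The checkpoint genes *BUB1* (0.07), *BUB1B* (−0.01), *BUB3* (0.09) and *TTK* (0.12) were not called in knockdown, with adjusted p from 0.0587 for *BUB3* to 0.885 for *BUB1B*. Of these, *BUB3* passed the threshold with shRNA1 (0.11, adjusted p = 0.0396). *MAD2L1*, which encodes the checkpoint protein MAD2, was the only 1 of the 50 genes called between the hairpins. It was at 6.54, 7.42 and 7.56 FPKM in control libraries, 7.68, 7.77 and 7.93 FPKM with shRNA1, and 5.94, 6.56 and 6.01 FPKM with shRNA2. The shRNA1 libraries lay above all control libraries and the shRNA2 libraries below all of them, except replicate 2, which was just above the lowest. The log2 difference of shRNA2 minus shRNA1 was −0.30 ± 0.0549 (adjusted p = 0.021). Against control, shRNA1 gave 0.11 (adjusted p = 0.208) and shRNA2 −0.19 (adjusted p = 0.0399). Leaving out any 1 of shRNA1 replicates 1 to 3 or of shRNA2 replicates 1 and 3 ended the call, with a largest adjusted p of 0.0809.

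Of the 4 genes of anaphase onset, *CDC20* rose and *ESPL1* was lower. *CDC20*, the APC/C activator, was at 158, 149 and 158 FPKM in control libraries, 177, 172 and 174 FPKM with shRNA1, and 172, 159 and 174 FPKM with shRNA2. The groups did not overlap, though shRNA2 replicate 2 stood just above the highest control library. The mean was 10.5% higher (log2 fold change 0.14 ± 0.0383, adjusted p = 0.0322). *UBE2C* and *PTTG1*, its ubiquitin-conjugating enzyme and the substrate securin, had 0.08 and 0.07 (adjusted p = 0.223 and 0.116). *ESPL1*, the protease separase that securin inhibits, was at 9.86, 9.97 and 9.42 FPKM in control libraries, 8.62, 8.497 and 8.51 FPKM with shRNA1, and 9.39, 9.11 and 8.76 FPKM with shRNA2. It fell by 9.59% (log2 fold change −0.13 ± 0.0365, adjusted p = 0.0357), and shRNA2 replicate 1 lay just below the lowest control library. Both calls were fragile. *CDC20* kept its call in 1 of the 9 fits that left out a library, that without shRNA2 replicate 2, and *ESPL1* in 2, those without shRNA2 replicate 1 or 2, with largest adjusted p of 0.137 for each. *CDC20* was also not called with median centring (0.14, adjusted p = 0.0592) or quantile normalization (0.07, adjusted p = 0.115).

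The chromosomal passenger complex, in which Aurora B works with 3 partners, moved in different directions. *AURKB*, its kinase, was at 83.8, 79.9 and 82.1 FPKM in control libraries, 94.7, 93.6 and 101 FPKM with shRNA1, and 94.1, 86.1 and 94.1 FPKM with shRNA2. All knockdown libraries were above control, and the mean was 14.7% higher (log2 fold change 0.19 ± 0.0455, adjusted p = 0.02). *BIRC5*, the subunit survivin, was at 81.5, 81.4 and 82.8 FPKM in control libraries, 87.8, 85.8 and 89.2 FPKM with shRNA1, and 85.4, 87.5 and 88.3 FPKM with shRNA2. The groups did not overlap, and the rise was 6.66% (log2 fold change 0.09 ± 0.0235, adjusted p = 0.0271). *INCENP*, the scaffold that activates Aurora B, was at 25.4, 25.04 and 24.5 FPKM in control libraries, 22.3, 21.9 and 22.4 FPKM with shRNA1, and 21.0, 21.0 and 19.5 FPKM with shRNA2. Control was highest and shRNA2 lowest without overlap, and *INCENP* fell by 14.6% (log2 fold change −0.22 ± 0.0437, adjusted p = 0.011). *CDCA8*, which encodes borealin, had −0.02 (95% interval −0.08 to 0.05, adjusted p = 0.703). Each hairpin alone called *AURKB* and *BIRC5* higher and *INCENP* lower. The *AURKB* call was lost without any 1 control library (largest adjusted p = 0.0876). That of *BIRC5* was lost without any 1 control library, shRNA1 replicate 1 or shRNA1 replicate 3 (0.108), and that of *INCENP* without control replicate 1 or 2 (0.0516). *BIRC5* was also not called with quantile normalization (0.04, adjusted p = 0.251) or with protein-coding accessions alone (adjusted p = 0.0556).

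Of 7 motor and spindle genes, 1 was called, and the median was −0.07. *CENPE*, the kinesin that carries chromosomes to the spindle equator, was at 7.65, 8.596 and 8.16 FPKM in control libraries, 7.01, 6.72 and 6.90 FPKM with shRNA1, and 6.79, 7.85 and 6.51 FPKM with shRNA2. Of the 14 called genes it was the only 1 whose groups overlapped, since shRNA2 replicate 2 lay within the control range. It fell by 14.4% (log2 fold change −0.20 ± 0.0541, adjusted p = 0.0337). Neither hairpin was called alone (adjusted p = 0.0579 and 0.0709), and the call was kept only without shRNA2 replicate 2, with a largest adjusted p of 0.138 otherwise. With no minimum level for testing it was also lost (adjusted p = 0.0531). *KIF20A*, a kinesin of the central spindle, was called lower with shRNA2 (−0.10, adjusted p = 0.0313) and had −0.04 with shRNA1. *KIF11* (−0.11), *KIF23* (0.03), *KIF2C* (0.02), *TPX2* (−0.0043) and *ASPM* (−0.14) were not called, with adjusted p of 0.306 or more.

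The cytokinesis genes differed least. *PRC1*, which bundles microtubules of the central spindle and had the lowest p of the 3, was at 81.9, 82.0 and 80.5 FPKM in control libraries, 84.7, 86.0 and 86.1 FPKM with shRNA1, and 83.8, 85.3 and 82.5 FPKM with shRNA2. The groups did not overlap, yet the difference of 3.99% was not called (log2 fold change 0.06 ± 0.0235, adjusted p = 0.127). *ECT2*, which activates RhoA at the cleavage site, and *ANLN*, the ring scaffold anillin, had 0.05 and −0.01 (adjusted p = 0.589 and 0.918).

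The genes of chromosome structure held the lowest median, −0.16, with 3 of 7 called lower and none higher. *MKI67*, the proliferation marker whose protein coats mitotic chromosomes, was at 75.3, 74.7 and 69.7 FPKM in control libraries. It was at 50.8, 51.5 and 50.04 FPKM with shRNA1, and 57.0, 64.9 and 50.4 FPKM with shRNA2. The shRNA1 libraries agreed closely and the shRNA2 libraries spread widely, and all 6 lay below control. The mean fell by 26.2% (log2 fold change −0.44 ± 0.0834, adjusted p = 0.0097), with −0.52 for shRNA1 and −0.35 for shRNA2. That difference between hairpins was not called (0.17, adjusted p = 0.285).

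*TOP2A*, the topoisomerase that untangles sister chromatids, was at 113, 121 and 115 FPKM in control libraries, 102, 104 and 103 FPKM with shRNA1, and 89.9, 101 and 87.8 FPKM with shRNA2. The groups did not overlap, and it fell by 15.9% (log2 fold change −0.25 ± 0.0637, adjusted p = 0.0266). With shRNA2 alone it was called (−0.33, adjusted p = 0.00589) and with shRNA1 it was not (−0.17, adjusted p = 0.0631). Its call was lost without any 1 control library (largest adjusted p = 0.11). *NCAPD2*, a subunit of condensin I, was at 73.2, 73.1 and 72.5 FPKM in control libraries, 63.5, 65.7 and 64.2 FPKM with shRNA1, and 63.6, 62.8 and 59.0 FPKM with shRNA2. The knockdown libraries lay well below the tight control range, and *NCAPD2* fell by 13.4% (log2 fold change −0.21 ± 0.0339, adjusted p = 0.00586).

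The other condensin genes were not called in knockdown, and their difference from *NCAPD2* was not tested. *NCAPG* and *NCAPH*, the remaining condensin I subunits listed, had 0.06 and −0.01 (adjusted p = 0.344 and 0.918). The core subunits *SMC2* and *SMC4* had −0.16 and 0.04 (adjusted p = 0.211 and 0.471), and *SMC2* was called lower with shRNA2 alone (−0.27, adjusted p = 0.0285).

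Taken one hairpin at a time against the same 3 control libraries, shRNA1 called 7 of the 50 genes higher and 6 lower (all tested genes: 11.7% and 7.19%, 18.8% in all), and shRNA2 called 6 higher and 10 lower (15.3% and 11.4%, 26.7% in all). Both called *CDC25A*, *SPC25*, *AURKB* and *BIRC5* higher and *CENPF*, *INCENP*, *NCAPD2* and *MKI67* lower. In the direct comparison 38 of the 50 genes were lower with shRNA2 than with shRNA1, and 49.5% of all tested genes were. The only call there was *MAD2L1*, lower with shRNA2, where 6.71% of all tested genes were called, 1.92% higher and 4.79% lower. With shRNA1 the total of 13 became 5, 3 and 6 without control replicates 1, 2 and 3, 4, 4 and 2 without shRNA1 replicates 1, 2 and 3, and 21 without shRNA2 replicate 2. Over all tested genes, 1458 higher and 899 lower became 689 and 448, 591 and 386, and 869 and 550 without control replicates 1, 2 and 3. They became 675 and 432, 604 and 397, and 530 and 353 without shRNA1 replicates 1, 2 and 3, and 2164 and 1361 without shRNA2 replicate 2. With shRNA2 the total of 16 became 8, 7 and 9 without control replicates 1, 2 and 3, and 9 without shRNA2 replicate 3. Over all tested genes, 1913 higher and 1422 lower became 1161 and 1039, 1088 and 965, 1325 and 1095, and 1240 and 1083 in the same fits. The shRNA2 libraries were unlike each other. The median of the 50 genes relative to the control mean was 0.04 in all shRNA1 libraries and in shRNA2 replicate 2, and −0.03 in shRNA2 replicates 1 and 3. With all libraries in, 14 of the 50 genes had an unadjusted limma p under 0.05 between the hairpins, as did 2802 of the 12509 tested genes. Without any 1 shRNA1 library, shRNA2 replicate 1 or shRNA2 replicate 3, 0 of the 50 genes were called between the hairpins. Over all tested genes, the fits that left out 1 of these libraries called 63 to 188 higher and 260 to 432 lower. Without shRNA2 replicate 2, 7 genes were called, and over all tested genes 240 higher and 599 lower became 348 and 812. *NEK2*, *MAD2L1*, *KIF11*, *ANLN*, *SMC2* and *TOP2A* were then lower with shRNA2 and *MYBL2* higher.

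Transcript length ordered the changes. Spearman's rho between length and the log2 fold change in knockdown was −0.71 across the 50 genes, and −0.43 across the 12295 tested genes with a length. Genes are not independent replicates, and all points share the same 9 libraries. The 25 shorter genes, from 753 to 3010 bases, had a median of 0.08, with 5 called higher and 0 lower. The 7252 tested genes shorter than 3105.5 bases, the median length of the 50, had 0.07, with 19.4% called higher and 1.89% lower. The 25 longer genes, from 3201 to 11417 bases, had a median of −0.10, with 1 called higher and 8 lower. The 5043 tested genes of 3105.5 bases or more had −0.03, with 5.35% called higher and 14.6% lower. The exception among longer genes was *CDC25A*, at 3783 bases. All 5 genes above 7000 bases, *MKI67*, *ASPM*, *CENPF*, *CENPE* and *KNL1*, lay below 0, and 3 of them were called lower. Of the 913 tested genes of such length, 28.4% were called lower, with a median of −0.11.

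**Figure D5:**
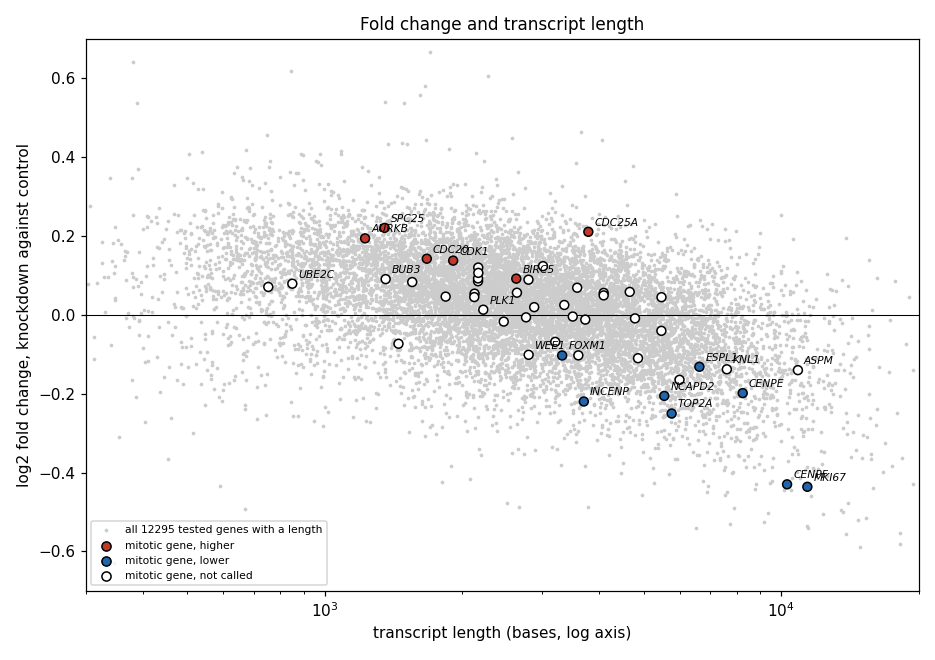
Each point is a gene, with transcript length in bases on a log axis and the log2 fold change of knockdown against control on the vertical axis. The called mitotic genes run from *AURKB* and *SPC25* at the upper left to *CENPF* and *MKI67* at the lower right. The 12295 tested genes in grey slope the same way, with a Spearman's rho of −0.43 against −0.71 for the 50 mitotic genes.

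The relation to length was negative in each knockdown library and varied among the control libraries. Relative to the control mean, rho across the 50 genes was −0.70, −0.61 and −0.69 in the shRNA1 libraries, and −0.64, −0.23 and −0.75 in the shRNA2 libraries. The weakest value belonged to shRNA2 replicate 2. Compared with the mean of the other control libraries, control replicate 2 had a rho of 0.61, and control replicates 1 and 3 had −0.28 and −0.45. When each library's trend with length over all tested genes was removed, 9 of the 50 genes were called, 2 higher and 7 lower (all tested genes with a length: 6.67% and 5.93%), and the median of the 50 was −0.0031. Of all tested genes with a length, 12.6% were then called. The removal left part of the relation in the 50 genes, with a rho of −0.31 between length and the log2 fold change. Medians were then 0.0031 for the 25 shorter genes and −0.045 for the 25 longer ones. *CDC25A* (0.21), *SPC25* (0.13), *FOXM1* (−0.12), *CENPF* (−0.29), *INCENP* (−0.22), *NCAPD2* (−0.16), *TOP2A* (−0.20) and *MKI67* (−0.28) were called both with and without the trend. *CDK1*, *CDC20*, *AURKB*, *BIRC5*, *ESPL1* and *CENPE* were not called once it was removed, with log2 fold changes of 0.07, 0.07, 0.10, 0.06, −0.06 and −0.09. *CENPA* was called only then (−0.16, adjusted p = 0.0434). The genes of chromosome structure, the role with the lowest median, had a median length of 5548 bases, against 3105.5 for the 50. With the trend removed their median was −0.11, with 3 of the 7 still called lower.

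Of the 35 genes listed with several transcripts, only *ASPM* and *BUB3* were compared by length within the gene. *ASPM* encodes a protein of the spindle poles. Its long transcript has 10887 bases and its short transcript 6132. The long transcript made up 63.0%, 66.3% and 65.0% of its FPKM in control libraries, 59.6%, 56.4% and 58.9% with shRNA1, and 65.5%, 60.2% and 62.4% with shRNA2. All shRNA1 libraries were below control and the shRNA2 libraries overlapped with it. *BUB3* is listed with transcripts of 7828 and 1361 bases, and the long one made up 6.97% to 8.06% of its FPKM in all libraries with overlapping groups.

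Of 134 tested genes that work beside the 50, 26 (19.4%) were called higher and 5 (3.73%) lower, with a median of 0.07, against 13.5%, 7.1% and 0.03 for all tested genes. With the length trend removed, 11 of the 134 were called higher and 5 lower, against 6.67% and 5.93% of all tested genes with a length. Of 17 APC/C subunits and regulators, 5 were called higher and 0 lower, with a median of 0.08. They were *ANAPC15*, *ANAPC16*, *CDC23* and *CDC26*, which are subunits, and *FBXO5*, which encodes the inhibitor EMI1 (0.14, adjusted p = 0.017). With the length trend removed, 1 of the 17 was called higher. Of 31 further kinetochore genes, 7 were called higher and 0 lower, with a median of 0.11, including *SKA3* (0.24), a microtubule-binding kinetochore protein, *ZWILCH* (0.20) and *CENPH* (0.18). Without the length trend 4 of the 31 were called higher. Of 15 further regulators of entry, 8 were called higher and 1 lower, with a median of 0.15. They included *CKS1B* (0.25) and *CKS2* (0.18), small CDK-binding proteins, *MASTL* (0.16), the kinase that restrains a CDK1-opposing phosphatase, and *ENSA* (0.16), its substrate. *GADD45A* (0.21) and *SFN* (0.24), which encode stress-induced inhibitors of the passage from G2 to M, were also among them. *CCNF*, a cyclin-like ubiquitin ligase subunit, was called lower (−0.10). Without the length trend 2 of the 15 were called higher and 1 lower.

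Of 23 further spindle and cytokinesis genes, 2 were called higher and 3 lower, and with the length trend removed 1 higher and 4 lower. The 3 genes called lower before that removal have long transcripts. *CIT* (−0.39, 8708 bases) encodes citron kinase of the midbody, *NUMA1* (−0.37, 7343 bases) a spindle pole protein, and *CKAP5* (−0.20, 6532 bases) a microtubule polymerase. *KIF18A* (0.23) and *KIFC1* (0.12) encode kinesins and were higher. Of 12 cohesin and condensin II genes 1 was called higher, *CDCA5*, which encodes sororin, while 8 lay below 0 and the median was −0.04. Removal of the length trend left 0 of the 12 called. Of 12 genes of the MuvB and DREAM complexes 1 was called lower, *DYRK1A*, the kinase that promotes assembly of DREAM. Once the length trend was removed, 0 of these 12 were called lower and 1 higher. Of 8 genes for turnover of WEE1, *SKP1* and *RBX1*, subunits of the SCF ubiquitin ligase, were called higher. Without the length trend 1 of the 8 was called higher and 0 lower. The largest difference in that list was that of *FBXW11*, an F-box protein of the same ligase, named here after its values were seen. Its mean was 14.2 FPKM in control libraries, 12.8 FPKM with shRNA1 and 9.38 FPKM with shRNA2, and all 6 knockdown libraries lay below control. In knockdown its log2 fold change of −0.34 ± 0.127 was not called (adjusted p = 0.0895). There both hairpins form 1 group, so a difference between them counts as spread. *FBXW11* was called lower with shRNA1 (−0.13 ± 0.0376, adjusted p = 0.0467), with shRNA2 (−0.55 ± 0.0376, adjusted p = 0.000343) and with shRNA2 against shRNA1 (−0.42, adjusted p = 0.00129). Of 16 tested genes of G1 and S phase control, *CCND1*, which encodes cyclin D1, was called higher (0.19). Without the length trend 1 of the 16 was called higher and 0 lower.

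By level, the 50 genes were abundant in DU145 cells. The median control mean was 36.3 FPKM, against 9.82 FPKM for all tested genes, and 41 of the 50 lay above that median. FPKM are scaled per transcript length, so levels are set side by side here. Across the 50 genes, length and control mean FPKM had a Spearman's rho of −0.28. Whether length still affects these levels was not tested. *UBE2C* stood highest at 238 ± 5.59 FPKM (s.d., n = 3) in control libraries, followed by *TPX2* at 159 ± 1.63 FPKM and *CDC20* at 155 ± 5.12 FPKM, and the last 2 do not differ beyond their spread. *CDC25A* was lowest at 4.996 ± 0.325 FPKM, next to *NCAPH* at 5.75 ± 0.289 FPKM.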

How the data were processed

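Poly(A) RNA of DU145 cells was sequenced on an Illumina HiSeq after a TruSeq stranded preparation. The authors aligned the reads with STAR and computed the deposited FPKM with Cufflinks, per transcript. The study's methods name a mouse build, while the labels and the coordinates in the tables are those of hg38. Read totals are not held by FPKM, so depth is unknown here and the number of libraries limits precision.

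FPKM were summed over the RefSeq accessions of each gene. Of 73240 accessions, 595 matched no gene symbol (0.387% to 0.431% of FPKM per library). Genes whose mean reached 1 FPKM were tested with limma 3.58.1 (R 4.3.3) on log2(FPKM + 1), which understates changes of low genes, with p-values adjusted by Benjamini and Hochberg and called under 0.05. Knockdown was compared with control in a model of 2 groups, and the hairpins in a model of 3 groups. In the model of 2 groups, a difference between the hairpins counts as spread within knockdown. Single values were tested with the exact permutation test (scipy 1.17.1). Tables used pandas 2.3.3 and numpy 2.4.6 in Python 3.11.15, and figures matplotlib 3.10.9. Length is that of the GENCODE transcript paired with the gene's most abundant accession that had one (or, without a pair, of its longest coding transcript), and the trend with length was removed per library with lowess (span 0.3) over 12295 genes. The fits were tested on simulated data.

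Values in every library are given for *CDK1*, *CCNB1*, *PLK1*, *WEE1* and *PKMYT1*, for each of the 50 genes called in knockdown or between the hairpins, and for the gene of lowest p in a role with no such gene. The genes and lists were chosen with earlier results of these data known. Alternatives were other pseudocounts, filters, scalings, accession sets, the replicate block and leaving out each library.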

Additional observations from a re-analysis of the deposited data

Results flagged for a closer look

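In 3 of the 50 genes, 1 of the 6 knockdown libraries stood far from the others, by Dixon's 95% criterion for 6 samples. Chance alone marks about 1 in 20 such groups, or 2.5 of 50. The library was shRNA2 replicate 2 each time. *KNL1* was at 8.57 FPKM in it and at 6.24 to 6.98 FPKM in the others. *CDC20* was at 159 FPKM against 172 to 177 FPKM, and *SMC4* at 71.1 FPKM against 63.1 to 64.7 FPKM. *MAD2L1* was marked because its response differed between the hairpins, by −0.30 on the log2 scale (shRNA2 minus shRNA1, limma adjusted p = 0.021).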

How the results depend on the processing

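Of 14 genes called in knockdown, leaving out a library gave 4 to 19, while calls over all tested genes ran from 580 to 2013 higher and 346 to 1218 lower. The range was 2 to 21 of 13 for shRNA1, 7 to 21 of 16 for shRNA2 and 0 to 7 of 1 between hairpins. Over all tested genes it was 530 to 2164 higher and 353 to 1361 lower for shRNA1. For shRNA2 it was 1088 to 2247 and 965 to 1933, and between hairpins 63 to 348 and 260 to 812. Removing the length trend gave 9, 7, 14 and 3 calls for knockdown, shRNA1, shRNA2 and shRNA2 against shRNA1. Over all tested genes with a length it gave 820 higher and 729 lower, 759 and 746, 1399 and 1519, and 434 and 750. With the replicate block as well, the 50 genes gave 5, 7, 15 and 3 calls. All tested genes with a length then gave 576 and 552, 634 and 714, 1370 and 1514, and 377 and 682. Quantile normalization gave 2 between the hairpins, and over all tested genes 303 higher and 571 lower. The cause was not tested. The median of the 50 moved to −0.0060 with quantile normalization and to −0.0031 without the length trend, with or without the block. Libraries sharing a replicate number did not pair: their deviations correlated at −0.071 to 0.111 (9 pairs), and those of other libraries at −0.123 to 0.184 (18 pairs). The replicate block alone gave 13, 16, 18 and 1 calls. Over all tested genes it gave 1539 higher and 838 lower, 1531 and 994, 2024 and 1534, and 243 and 559. Of the single-gene results under alternatives, 888 kept direction and side of the threshold, 79 lost the call, 11 gained one and 42 changed sign, none of them in a called gene. With quantile normalization these were *PLK1* (−0.024), *MYBL2* (−0.0076), *UBE2C* (−0.0043), *KIF23* (−0.024), *KIF2C* (−0.0042), *PRC1* (−0.00057), *ECT2* (−0.0015) and *SMC4* (−0.0080). Without the length trend, with or without the block, they were *PLK1* (−0.037), *NEK2* (−0.00012), *CDC25C* (−0.0089), *MAD2L1* (0.0056), *NUF2* (−0.020), *UBE2C* (−0.036), *PTTG1* (−0.048), *KIF2C* (−0.0060), *ASPM* (0.0049) and *ANLN* (0.020). Leaving out a library, the ranges that crossed 0 were *BUB1B* −0.038 to 0.017, *CDCA8* −0.037 to 0.011, *KIF23* −0.0016 to 0.040, *KIF2C* −0.0012 to 0.043, *TPX2* −0.014 to 0.0063, *ANLN* −0.032 to 0.015 and *NCAPH* −0.039 to 0.022.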
